A study of Homo sapiens with 12 samples.

Results

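Messenger RNA of OVK18 cells, an ovarian cancer line, was compared between cells carrying the guide RNA sgWRN3, which targets WRN, and cells carrying the control guide sgCh2-2, which targets an intergenic site on chromosome 2. The libraries were chosen by their labels: 2 sgWRN3 libraries and 2 sgCh2-2 libraries, each pair lettered A and B, which makes 4 of the 12 libraries of the series. The other libraries carry a second WRN guide, sgWRN2, in OVK18, and the same 3 guides in SW48, a colorectal cancer line. All cells, controls included, expressed Cas9, the nuclease that cuts where the guide directs it, and all were harvested 72 h after transduction, so that by their labels the groups differ only in the guide. Each line is 1 cell line, and the labels do not say whether A and B came from separate cultures; the p values therefore measure the spread between these libraries, which may be technical.

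WRN encodes a helicase and exonuclease of the RecQ family, a group of enzymes that unwind unusual DNA structures during replication and repair. Cells with defective DNA mismatch repair and unstable microsatellites depend on WRN for survival, and both lines are known for such a defect. Many of the genes described here belong instead to the unfolded protein response of the endoplasmic reticulum (ER), in which sensors in the ER membrane release transcription factors such as ATF6 and spliced XBP1, and these raise chaperones, disulfide isomerases and degradation factors.

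The 4 libraries held between 23103268 and 32581625 counts over 25343 genes. Of the 11 Mullerian and ovarian markers examined, PAX8, WFDC2 and SOX17 were at 0 in all 4 libraries, whereas HOXA11 stood at 37.6 to 42.0 CPM (counts scaled to library size after TMM normalisation, the level scale used throughout). Of the epithelial markers, EPCAM stood at 0.233 to 0.698 CPM, and CDH1, KRT19, CLDN4, ESRP1 and GRHL2 stood no higher than 0.261 CPM. CLDN7 stood at 75.7 to 85.2 CPM, ESRP2 at 16.9 to 18.9 CPM and KRT18 at 9.94 to 13.4 CPM. Of the mesenchymal markers, COL3A1 stood at 417 to 455 CPM, ZEB1 at 153 to 169 CPM and PDGFRA at 21.6 to 23.2 CPM. VIM stood at 1.05 to 1.73 CPM, and FAP and THY1 were at 0. Most epithelial markers were thus low, with exceptions, and the mesenchymal markers were mixed. Of the intestinal markers that were clearly present in the SW48 controls, CDX2 (104 and 70.9 CPM there) and CEACAM5 (57.5 and 49.8 CPM) were at most 0.0388 and at 0 CPM in the 4 OVK18 libraries. EPHB2, another of these (58.3 and 45.8 CPM in the SW48 controls), stood at 13.2 to 16.1 CPM in the 4 OVK18 libraries. The A and B libraries of a group differed beyond counting error (chi-square per gene 13.0 with sgCh2-2 and 14.3 with sgWRN3). Their A minus B differences ran alike in both groups, with a correlation of 0.738 across 9580 genes. A fit with the letter as a block, called the paired fit below, was therefore set beside the fit of all 12 libraries without pairing.

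The WRN transcript, the target of the guide, was lower in the sgWRN3 libraries. It stood at 32.0 CPM in control A and 39.8 CPM in control B, and at 22.2 CPM in sgWRN3 A and 23.0 CPM in sgWRN3 B. Both sgWRN3 libraries lay below both controls, and they lay closer to each other than the controls did. In the paired fit WRN fell by 0.67 in log2 units (SE 0.0767, adjusted p = 0.00179 with edgeR's quasi-likelihood test), to 0.628 times the control level. In the fit without pairing the difference was the same size (-0.67, SE 0.161) but missed the threshold (adjusted p = 1). The paired call for the OVK18 WRN transcript rested in part on single libraries: it held at -0.80 without control A and at -0.81 without sgWRN3 A, and was lost at -0.55 without control B and at -0.53 without sgWRN3 B. The libraries measure the transcript and not the protein, and in bulk RNA fewer cells with the transcript and less transcript per cell cannot be told apart. With sgWRN2, WRN stood at 22.0 and 21.0 CPM in A and B, and the direct test between the guides gave a difference of 0.07 (SE 0.164, adjusted p = 0.908).

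**Figure D1:**
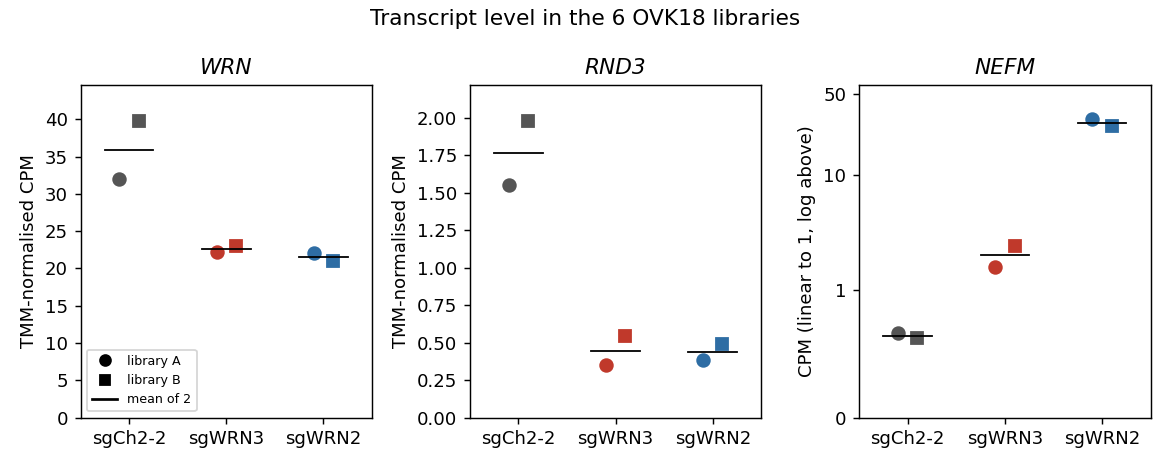
Levels of WRN, RND3 and NEFM in the 6 OVK18 libraries, in TMM-normalised CPM; circles are A libraries, squares are B libraries and bars are means of 2, and the NEFM axis is linear to 1 and logarithmic above. WRN and RND3 lie lower in all 4 WRN-guide libraries than in both controls, and NEFM with sgWRN3 (1.57 and 2.41 CPM) lies between the controls and sgWRN2 (30.2 and 26.1 CPM).

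Few genes passed a test across all genes. Without pairing 0 of 14199 genes passed an adjusted p of 0.05 (0%), although 116 had an unadjusted p under 0.05 (0.817%), 75 of them higher with sgWRN3 (0.528%). DESeq2 called 1 gene in that design, RND3, and limma-voom called 0. In the paired fit, which takes the 8 libraries without sgWRN2 and has 2 residual degrees of freedom, 12 of 14209 genes passed (0.0845%), 10 higher (0.0704%) and 2 lower (0.0141%), and 718 had an unadjusted p under 0.05 (5.05%), higher in 3.28% and lower in 1.77% of the genes tested. The 12 were CRELD2, HYOU1, HSPA5, MANF, PDIA4, SEL1L, LRP1, RNF213, MICAL2 and NEFM among the higher, and WRN and RND3 among the lower. The effect in all 12 kept its sign under every other fit run, but few calls survived the loss of a library: without control A or sgWRN3 A the paired fit called 1 gene, WRN, without control B 1 gene, CRELD2, and without sgWRN3 B 2 genes, CRELD2 and HYOU1. Each of these fits leaves only 1 OVK18 pair for the comparison. The paired fit of the 4 OVK18 libraries alone, which has the least spread to draw on, called 164 genes, the same 12 among them. Below, "rose" and "fell" refer to the paired fit.

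**Figure D2:**
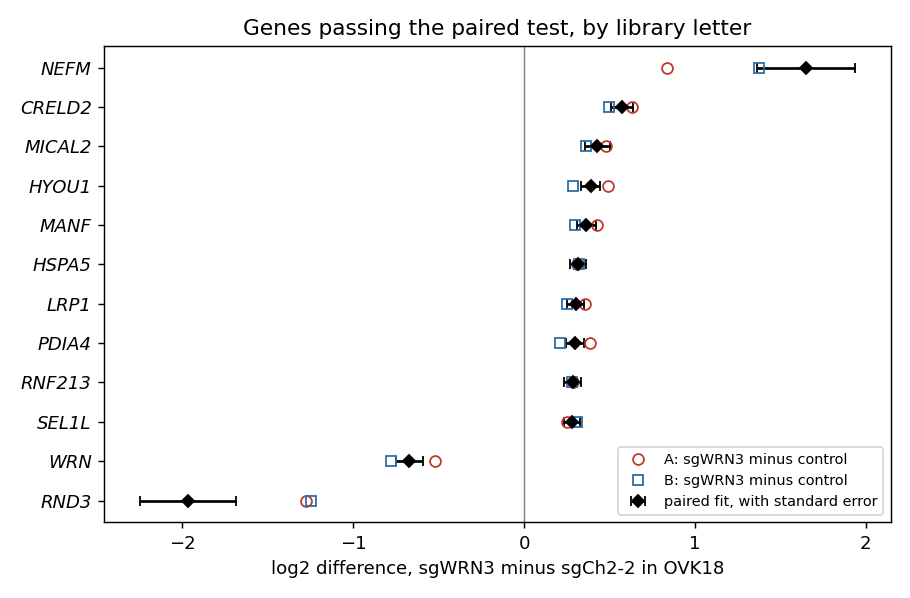
The 12 genes past the threshold in the paired fit; black diamonds are log2 fold changes with standard errors, red circles and blue squares are the log2 differences between the A libraries and between the B libraries, taken as log2(CPM + 0.5). Both letters lie on the same side of 0 for every gene; for NEFM and RND3, the genes of lowest level, the added 0.5 draws the letter values towards 0.

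Of the 10 genes that rose, 6 encode proteins that fold, modify or dispose of proteins in the ER. HSPA5 encodes BiP, the main Hsp70 chaperone of the ER, and was the most abundant of the 6. It stood at 1556 and 1149.7 CPM in controls A and B and at 1932 and 1436 CPM in sgWRN3 A and B. Each sgWRN3 library exceeded the control of its letter, by 1.24 and 1.25 times, but the groups overlapped, since sgWRN3 B lay below control A. HSPA5 rose by 0.32 in log2 units (SE 0.0457, adjusted p = 0.0129; without pairing also 0.32, SE 0.153, adjusted p = 1).

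HYOU1 encodes a large chaperone that exchanges nucleotide on BiP. It stood at 486 and 342 CPM in the controls and at 683 and 417 CPM with sgWRN3. As with HSPA5, the A libraries were the higher in both groups and sgWRN3 B lay below control A. HYOU1 rose by 0.39 (SE 0.0535, adjusted p = 0.0122). PDIA4, a protein disulfide isomerase, stood at 444 and 358 CPM in the controls and at 579.9 and 414 CPM with sgWRN3. The groups overlapped in the same way, and PDIA4 rose by 0.30 (SE 0.0517, adjusted p = 0.0422).

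CRELD2, an ER-resident protein induced by ER stress, changed the most of the 6. Its level was 52.6 CPM in control A and 37.4 CPM in control B, against 81.8 and 53.1 CPM in sgWRN3 A and B. Both sgWRN3 libraries lay above both controls, sgWRN3 B by a narrow margin over control A. CRELD2 rose by 0.57 (SE 0.0632, adjusted p = 0.00179), which is 1.49 times the control level. MANF, a secreted and ER-retained trophic factor, stood at 149 and 107 CPM in the controls and at 201 and 132 CPM with sgWRN3. It rose by 0.36 (SE 0.0555, adjusted p = 0.0200), with sgWRN3 B below control A. SEL1L, the scaffold of the ubiquitin ligase complex that removes misfolded proteins from the ER, stood at 259 and 222 CPM in the controls and at 308 and 275 CPM with sgWRN3. Its groups did not overlap, and it rose by 0.28 (SE 0.0476, adjusted p = 0.0396). HYOU1, like MICAL2 below, was named after its values were seen, because overlap with a control kept it outside the rule for named genes. These sizes rested on the pairing: without it, leaving out a library moved HYOU1 between 0.0055 and 0.70, MANF between 0.032 and 0.63, PDIA4 between 0.041 and 0.51, HSPA5 between 0.081 and 0.53, CRELD2 between 0.23 and 0.84 and SEL1L between 0.16 and 0.38. The lowest value came without sgWRN3 A for all but SEL1L, whose lowest came without control B. In the paired fit the same omissions gave 0.27 to 0.49 for HYOU1, 0.28 to 0.43 for MANF, 0.20 to 0.38 for PDIA4, 0.29 to 0.31 for HSPA5, 0.49 to 0.64 for CRELD2 and 0.23 to 0.30 for SEL1L.

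**Figure D3:**
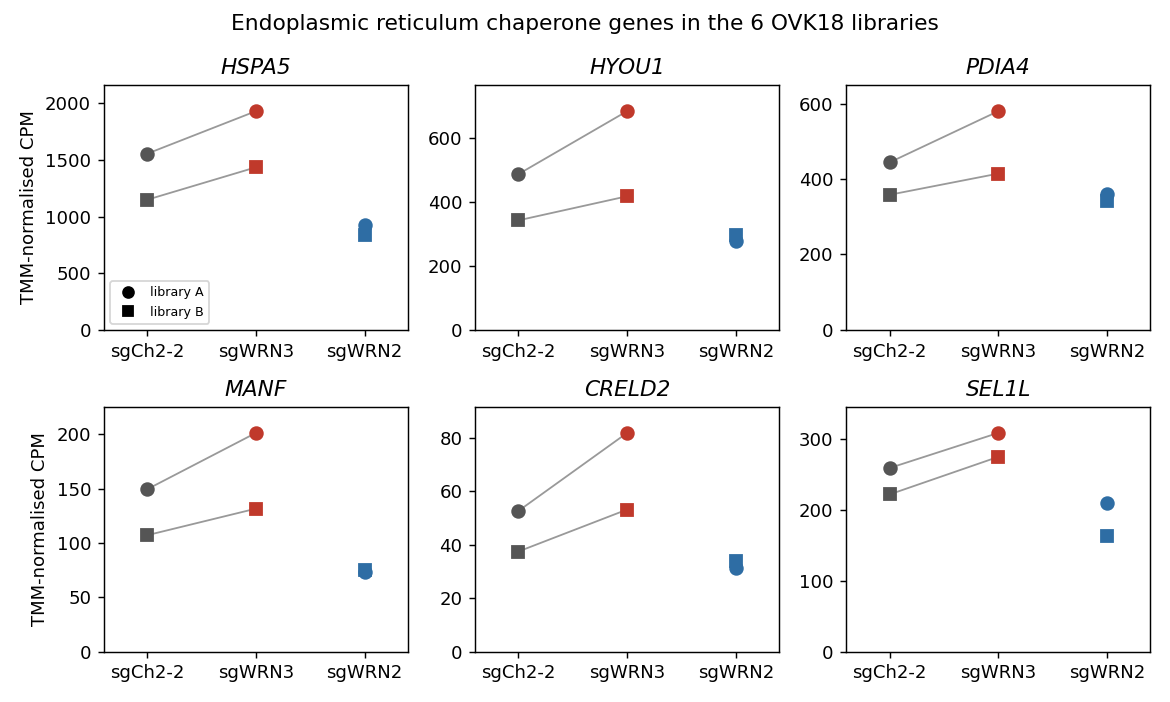
Levels of 6 ER genes in the OVK18 libraries, in TMM-normalised CPM with axes from 0; circles are A libraries, squares are B libraries, and grey lines join the sgCh2-2 and sgWRN3 libraries of a letter. Each line rises from control to sgWRN3, the A line lies above the B line, and the sgWRN2 libraries lie at or below the lower control except PDIA4 A (361 CPM).

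Some of these genes carry an ER stress element, the promoter motif to which ATF6 and the factor NF-Y bind in known targets. Promoter windows of 300 bases, 250 before and 50 after the start, were taken from RefSeq (GRCh38.p14), and both forms of the element were searched on both strands. ERSE is CCAAT, then 9 bases of any kind, then CCACG, and ERSE-II is ATTGG, then 1 base of any kind, then CCACG. The matches are shown for the 3 genes that rose and held one, and for HERPUD1, the ER gene with the smallest p between the WRN guides below. Capitals mark each match, with 20 bases on either side, on the gene's strand and upstream of its start.
HSPA5 chr9:125241371-125241429, minus strand: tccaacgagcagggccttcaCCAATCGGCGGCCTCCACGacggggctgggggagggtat
CRELD2 chr22:49918534-49918592, plus strand: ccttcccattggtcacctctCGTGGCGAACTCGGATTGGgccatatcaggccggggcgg
HYOU1 chr11:119057254-119057410, minus strand: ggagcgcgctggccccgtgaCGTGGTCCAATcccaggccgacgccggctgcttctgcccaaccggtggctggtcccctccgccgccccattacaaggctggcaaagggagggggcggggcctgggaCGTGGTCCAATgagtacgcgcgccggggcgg
HERPUD1 chr16:56932005-56932055, plus strand: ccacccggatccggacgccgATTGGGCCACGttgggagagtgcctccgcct

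HSPA5 and CRELD2 hold ERSE, in CRELD2 as its reverse complement. HYOU1 holds ERSE-II at 2 places, both as the reverse complement, and HERPUD1 holds it in the forward direction. Of the 12 genes called, 10 had a promoter in the table, and 2 of these held ERSE and 1 held ERSE-II. Among 27305 promoters of the same length, 22 held ERSE (0.0806%) and 15 held ERSE-II (0.0549%). Of the 10309 tested genes with a promoter, 13 held ERSE (0.126%) and 12 held ERSE-II (0.116%). A match describes letters in a window and does not show that a factor bound there.

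To see how far the ER genes moved together, a list of 47 genes of ER folding, glycosylation control, translocation and degradation was drawn up after the values above were known, so it is a description and not independent evidence. Of the 46 tested, 6 rose (the genes above) and 0 fell, and 25 had an unadjusted p under 0.05, all higher with sgWRN3. Over all genes tested 0.0704% rose, and 3.28% were higher at that unadjusted p. The median log2 fold change was 0.15 in the list, against 0.00 over all genes. In 33 of 46 sgWRN3 exceeded the control within both letters (71.7%, against 27.4% of all genes tested), and in 2 it was lower within both (against 26.4%). Both sgWRN3 libraries lay above both controls for 12 of 46 (26.1%, against 9.53% of all genes). Within letters the list's median difference was 0.17 for A and 0.14 for B. The list also differed between A and B in the same direction as the guide effect, with a median A minus B difference of 0.18 in the controls and 0.24 with sgWRN3; its part in the result was not tested. When a library was left out without pairing, the list's median ran from 0.04 without sgWRN3 A and 0.06 without control B to 0.23 without sgWRN3 B and 0.25 without control A. In the paired fit the same omissions gave 0.12 to 0.17.

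Below the threshold the other chaperones lay in the same direction. HSP90B1, the Hsp90 of the ER, stood at 1628 and 1470.2 CPM in the controls and at 2017 and 1697 CPM with sgWRN3, both above both controls (0.26, SE 0.0487, adjusted p = 0.0803). DNAJB11, a BiP co-chaperone, had a log2 difference of 0.32 (adjusted p = 0.0981). CALR, the lectin chaperone calreticulin, differed by 0.23 (adjusted p = 0.206), PDIA6 by 0.23 (adjusted p = 0.254), HERPUD1, an ER degradation factor, by 0.22 (adjusted p = 0.330) and XBP1 by 0.21 (adjusted p = 0.330). ATF6, the sensor, stood at 180.0 and 187 CPM in the controls and at 176 and 177 CPM with sgWRN3, a log2 difference of -0.05 (adjusted p = 0.967). None of these passed over all genes. In the list, 39 genes had a promoter in the table, 6 with ERSE (15.4%) and 3 with ERSE-II (7.69%). The 9 with either element had a median log2 fold change of 0.26, all above 0, and the 30 with neither had a median of 0.13, with 28 above 0. CRELD2, HYOU1 and HSPA5, whose rise came before the list, are among the 9, so this is a description, and a role of the element was not tested.

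A list that joins targets of ATF4, the factor of the amino acid and integrated stress response, with ER chaperones was split into those groups. Its 8 ER members (HSPA5, HSP90B1, PDIA4, DNAJB9, HERPUD1, SDF2L1, XBP1 and CALR) had a median of 0.25, and all 8 were higher within both letters (27.4% of all genes were). All 8 also belong to the ER list drawn up after the values were known, so they are no separate support. The other 18, mainly ATF4 targets of amino acid supply, had a median of 0.04. Within both letters 8 of them were higher (44.4%) and 4 lower (22.2%, against 26.4% of all genes). ASNS, asparagine synthetase, stood at 181 and 164 CPM in the controls and at 185 and 167 CPM with sgWRN3. It differed by 0.02 (SE 0.0490, adjusted p = 0.998). ATF3, a stress-induced factor, stood at 18.4 and 15.9 CPM in the controls and at 15.3 and 14.6 CPM with sgWRN3 (-0.19, adjusted p = 0.967).

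The median of the ER list lay above 0 with sgWRN3 (0.15) and below 0 with sgWRN2 (-0.20), though not every member did so. These 2 effects share the control libraries, so the guides were set against each other directly, in the fit of all 12 libraries, which needs no control. Between sgWRN3 and sgWRN2 in OVK18, 106 of 14199 genes differed (0.747%), 44 higher with sgWRN3 (0.31%) and 62 lower (0.437%). Of the 46 ER genes, 7 were higher with sgWRN3 and 0 lower, with a median log2 difference of 0.36. HERPUD1 stood at 98.6 and 75.4 CPM with sgWRN3 and at 38.0 and 36.2 CPM with sgWRN2, with the controls between at 84.7 and 64.2 CPM. It was higher with sgWRN3 by 1.23 in log2 units (SE 0.151, adjusted p = 0.00440). MANF stood at 72.9 and 74.9 CPM with sgWRN2 and differed between the guides by 1.17 (SE 0.185, adjusted p = 0.0132), HSPA5 at 928 and 841 CPM and by 0.93 (SE 0.155, adjusted p = 0.0165), and CRELD2 at 31.3 and 34.0 CPM and by 1.05 (SE 0.199, adjusted p = 0.0354). FICD, the enzyme that modifies BiP, differed by 1.40 (SE 0.276, adjusted p = 0.0438) and RNASE4, a secreted ribonuclease, by 1.27 (SE 0.194, adjusted p = 0.0116). For none of these did the 4 libraries of the 2 guides overlap. Each is given here because it passed this test, so the lack of overlap is no further support. With the letters as a block the calls of FICD (adjusted p = 0.0636), RNASE4 (adjusted p = 0.0590) and CRELD2 (adjusted p = 0.0726) were lost, and FICD missed the threshold in 15 of its 24 alternatives in all (adjusted p up to 0.334). Of 25 alternatives each, CRELD2 missed it in 11, MANF in 6, HSPA5 in 6, RNASE4 in 5 and HERPUD1 in 1. Over these the difference ran from 0.68 to 1.29 for CRELD2, 0.81 to 1.40 for MANF and 0.67 to 1.09 for HSPA5.

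Libraries mattered to this count as well. Without sgWRN3 A 11 genes were called between the guides, and without sgWRN3 B 27. The count was 52 without OVK18 sgWRN2 B, 70 without either OVK18 control, and 67 and 60 without SW48 sgWRN2 A and B. In the A minus B difference the sgWRN2 libraries ran opposite to the sgWRN3 libraries of OVK18 (correlation -0.621 across 9580 genes), and the fit with the letters as a block called 31. The genes with the largest differences towards sgWRN2 were barely present with sgWRN3. CCND2, a D-type cyclin, had 0 counts in both sgWRN3 libraries, 0 and 1 in the controls and 29 and 9 with sgWRN2. TES, a focal adhesion protein, had 0 and 1 counts with sgWRN3, 0 and 0 in the controls and 21 and 7 with sgWRN2. HTATIP2 had 0 and 1 counts with sgWRN3 against 33 and 19 with sgWRN2, and ARHGEF37 1 and 0 against 13 and 8. At such counts no fold is given, and the block ended the calls of TES and ARHGEF37 (adjusted p = 0.0639 for each). In the SW48 libraries CCND2 stood at 523 to 605, TES at 147 to 164, HTATIP2 at 85.7 to 102 and ARHGEF37 at 19.8 to 23.8 CPM.

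Beside the ER genes, RND3 and NEFM changed, both at low levels. RND3 encodes a protein that loosens the actin cytoskeleton. It had 40 and 64 counts in controls A and B and 8 and 14 counts in sgWRN3 A and B, or 1.55 and 1.98 against 0.348 and 0.543 CPM. Both sgWRN3 libraries lay well below both controls, and RND3 fell by 1.97 in log2 units (SE 0.282, adjusted p = 0.0129), to 0.256 times the control level. The sgWRN2 libraries stood at 0.386 and 0.493 CPM. RND3 stood far higher, at 26.3 to 33.3 CPM, in the SW48 libraries with sgCh2-2 and sgWRN3. EPCAM, at 583 and 649 CPM in the SW48 controls, stood at 0.233 and 0.650 CPM in the OVK18 controls and at 0.305 and 0.698 CPM with sgWRN3.

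NEFM, the medium neurofilament chain, had 17 and 20 counts in the controls and 36 and 62 with sgWRN3, or 0.660 and 0.619 against 1.57 and 2.41 CPM. The groups did not overlap, and NEFM rose by 1.65 (SE 0.285, adjusted p = 0.0422), 3.14 times the control level. With sgWRN2 it stood at 30.2 and 26.1 CPM, and the difference of sgWRN3 from sgWRN2 was -3.81 (SE 0.280, adjusted p = 5.91e-05). NEFM also rose with sgWRN3 in SW48 (1.35, SE 0.289, adjusted p = 0.0346), and the lines did not differ detectably (0.30, SE 0.417, adjusted p = 0.947). The SW48 sgWRN2 libraries held it at 34.5 and 21.2 CPM. In OVK18, 4 of 10 neural markers were tested and NEFM alone passed. The summed level of the markers was 109.8 to 137 CPM in the controls and 109 to 144 CPM with sgWRN3. Most of it was TUBB3, at 99.4 and 75.7 CPM in the controls and 102 and 73.7 CPM with sgWRN3. SYP stood at 31.1 and 27.9 CPM against 34.1 and 27.2 CPM, so the sum says little about NEFM. NEFH and ELAVL4 were at 0 in all 4 libraries. EGR1, an immediate-early factor, and IFT57, a cilium transport protein, also differed between the guides. EGR1 stood at 68.3 and 66.7 CPM in the controls, 72.9 and 69.5 with sgWRN3 (0.08, adjusted p = 0.967) and 207 and 192 with sgWRN2, and the guides differed by -1.49 (SE 0.0902, adjusted p = 2.07e-05). IFT57 had 4 and 8 counts in the controls, 6 and 11 with sgWRN3 and 125 and 72 with sgWRN2 (guides -3.57, SE 0.250, adjusted p = 5.40e-05).

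Of the remaining genes that rose, LRP1 and MICAL2 act at the cell surface and on actin, and RNF213 is a very large ubiquitin ligase. LRP1, an endocytic receptor of the LDL receptor family, stood at 169 and 160.3 CPM in the controls and at 216 and 190.5 CPM with sgWRN3. Its groups did not overlap and it rose by 0.30 (SE 0.0501, adjusted p = 0.0396). In SW48, where 151 genes passed with sgWRN3 (1.06%), it rose by 0.29 (SE 0.0549, adjusted p = 0.0233), and the lines did not differ detectably (0.01, SE 0.0743, adjusted p = 1). RNF213 stood at 162 and 177 CPM in the controls and at 198 and 215 CPM with sgWRN3, again without overlap, and rose by 0.28 (SE 0.0481, adjusted p = 0.0396). It has an antisense neighbour, and the strand setting of the counting is not given in the sources used here. MICAL2, an oxidase that depolymerises actin, stood at 25.2 and 18.5 CPM in the controls and at 35.4 and 23.9 CPM with sgWRN3. It overlapped and rose by 0.43 (SE 0.0729, adjusted p = 0.0396). LRP1, RNF213 and SEL1L lie in the top 10% of genes by transcript length, whose median log2 fold change was 0.01; across 11179 genes length and fold change had a Spearman correlation of 0.0374.

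By the rule for named genes, those next in line are given as values, since they did not pass. NUCB2, a calcium-binding protein of the secretory pathway, stood at 76.7 and 70.7 CPM in the controls and at 106 and 85.7 CPM with sgWRN3 (0.37, SE 0.0668, adjusted p = 0.0579). On the lower side NR4A3, an orphan nuclear receptor, stood at 2.99 and 3.59 CPM against 1.44 and 1.75 CPM (-1.05, SE 0.196, adjusted p = 0.0803). ID2, an inhibitor of differentiation factors, stood at 31.6 and 36.8 CPM against 25.9 and 29.6 CPM (-0.30, adjusted p = 0.206). RPL41, a small ribosomal protein with many near-identical copies whose reads the counting could split, stood at 151 and 150.3 CPM against 128 and 128 CPM (-0.24, adjusted p = 0.162). In all 4 genes the 2 groups did not overlap, which the rule required and which is therefore no support.

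Genes of the cell cycle lay slightly lower with sgWRN3, and 0 of them passed, where 0.0845% of all genes did. Of 50 mitotic genes, 36 were lower within both letters (72%, against 26.4% of all genes) and 2 higher (4%, against 27.4%). Their median log2 fold change was -0.09, and 21 lay below both controls (42.0%, against 10.5% of all genes). Of the 50, 13 had an unadjusted p under 0.05, all lower, while over all genes tested 1.77% were lower at that p. CCNB1, the mitotic cyclin, stood at 125 and 121 CPM in the controls and at 109 and 114 CPM with sgWRN3 (-0.14, SE 0.0519, adjusted p = 0.858). ANLN, a scaffold of the cytokinetic ring, differed by -0.20 (adjusted p = 0.330), DLGAP5, a spindle protein, by -0.23 (adjusted p = 0.406) and KIF18A, a mitotic kinesin, by -0.26 (adjusted p = 0.406). Of 49 genes of S phase and replication, 36 were lower within both letters (73.5%) and 2 higher (4.08%). Their median was -0.10, and 9 had an unadjusted p under 0.05, all lower. CCNE2, the cyclin of S phase entry, had the smallest p of these, at 18.0 and 18.1 CPM in the controls and 13.4 and 14.7 CPM with sgWRN3 (-0.36, SE 0.0813, adjusted p = 0.241). MCM4, a subunit of the replicative helicase, differed by -0.16 (adjusted p = 0.691) and MCM5 by -0.20 (adjusted p = 0.821). With sgWRN2 in OVK18, over the same controls, the mitotic and S phase medians were -0.35 and -0.30. With sgWRN3 in SW48 they were -0.25 and -0.16.

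Repair genes showed a smaller shift. Of 48 genes of double-strand break repair, 20 were lower (41.7%, against 26.4% of all genes) and 8 higher (16.7%, against 27.4%) within both letters. The median was -0.04, and 0 passed, where 0.0845% of all genes did. CHEK1, a checkpoint kinase, differed by -0.14 (adjusted p = 0.858), whereas PRKDC, the catalytic subunit of the DNA-dependent kinase, differed by 0.13 (adjusted p = 0.858). Among the 5 RecQ helicases WRN alone passed. RECQL stood at 88.7 and 94.9 CPM in the controls and at 81.4 and 87.9 CPM with sgWRN3 (-0.12, adjusted p = 0.967), and BLM at 17.6 and 17.6 CPM against 17.1 and 15.9 CPM (-0.10, adjusted p = 0.969). The RecQ median of -0.10 includes WRN, the target of the guide. Of 7 mismatch repair genes tested 0 passed, with a median of 0.01. EXO1, the exonuclease of mismatch repair, differed by -0.18 (adjusted p = 0.814) and MSH6, a mismatch sensor, by -0.05 (adjusted p = 0.968).

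**Figure D4:**
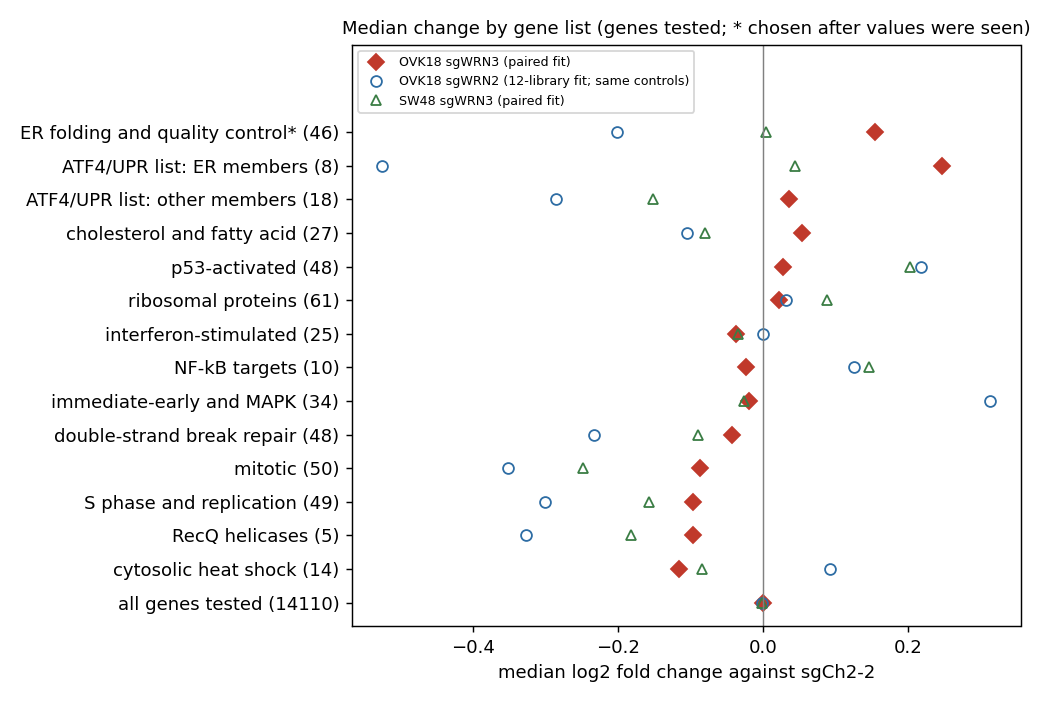
Median log2 fold change against sgCh2-2 for 14 gene lists and for all genes; red diamonds are sgWRN3 in OVK18, blue circles sgWRN2 in OVK18, which shares the control libraries, and green triangles sgWRN3 in SW48. For sgWRN3 in OVK18 the ER genes lie highest (0.15 and 0.25), the p53-activated genes lie at 0.03, and the mitotic, S phase and heat shock lists lie at -0.09 to -0.12. The genes of the ER point at 0.25 also belong to the list at 0.15, which was chosen after the values were known.

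The p53 pathway, which arrests or kills cells with damaged DNA, held 0 genes past the threshold in OVK18 with sgWRN3. Only 0.0845% of all genes passed in the paired fit, so a count of 0 in a list of this size carries little weight. CDKN1A, the p53 target that inhibits cyclin-dependent kinases, stood at 179 and 173 CPM in the controls and at 187 and 172 CPM with sgWRN3. sgWRN3 A lay above control A and sgWRN3 B just below control B, and the difference was 0.03 (SE 0.0490, adjusted p = 0.998). MDM2, whose product marks p53 for destruction, stood at 735 and 833 CPM in the controls and at 729 and 858 CPM with sgWRN3 (0.02, SE 0.0474, adjusted p = 1). Of 48 p53-activated genes 0 passed, and the median was 0.03. Within both letters 22 were higher (45.8%, against 27.4% of all genes) and 6 lower (12.5%, against 26.4%), and 8 lay above both controls (16.7%, against 9.53%). Of the 48, 5 had an unadjusted p under 0.05, all higher, while over all genes tested 3.28% were higher at that p. The smallest p values belonged to LIF, a cytokine (0.37, SE 0.144, adjusted p = 0.865), FDXR, a mitochondrial reductase (0.16, adjusted p = 0.897), and DDB2, a damage sensor of excision repair (0.16, adjusted p = 0.897); in each both sgWRN3 libraries lay above both controls. BTG2, an antiproliferative factor, differed by 0.07 (adjusted p = 0.967).

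The effect of sgWRN3 was then tested between the lines, OVK18 against SW48, which share no libraries. Without pairing 0 of 14199 genes differed (0%), while 152 had an unadjusted p under 0.05 (1.07%; 1 called by DESeq2 and 0 by limma-voom). In the paired fit 5 of 14209 did (0.0352%). CDKN1A stood at 412 and 326 CPM in the SW48 controls and at 655 and 519 CPM with sgWRN3 there, an effect of 0.67 (SE 0.0476, adjusted p = 2.77e-06), and the OVK18 effect minus that of SW48 was -0.65 (SE 0.0682, adjusted p = 0.00130). MDM2 stood at 472 and 480.2 CPM against 642 and 689 CPM in SW48, an effect of 0.48 (SE 0.0481, adjusted p = 0.000194), and the lines differed by -0.47 (SE 0.0675, adjusted p = 0.0155). Both p53 targets passed in SW48 with sgWRN3 and showed no detectable difference in OVK18 with that guide. With sgWRN2 in OVK18, CDKN1A stood at 253 and 295 CPM (0.64 against the controls in the 12-library fit, adjusted p = 0.0628). MDM2 stood at 1015 and 768 CPM there (0.19, adjusted p = 0.639). The p53-activated list had a median of 0.22 with sgWRN2 in OVK18 and of 0.20 with sgWRN3 in SW48.

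ASNS stood at 147 and 147 CPM in the SW48 controls and at 106 and 111 CPM with sgWRN3, and its effect in OVK18 was 0.46 higher (SE 0.0715, adjusted p = 0.0302). CRELD2 stood at 57.5 and 54.7 CPM against 57.8 and 49.3 CPM in SW48, a difference between the lines of 0.64 (SE 0.0917, adjusted p = 0.0155). RND3 was level in SW48 (0.13, SE 0.0801, adjusted p = 0.585), and the lines differed by -2.09 (SE 0.293, adjusted p = 0.0155). For HSPA5 the lines differed by 0.25 (SE 0.0647, adjusted p = 0.472) and for HYOU1 0.39 (SE 0.0771, adjusted p = 0.192), and neither passed. The 46 ER genes had a median of 0.00 with sgWRN3 in SW48, and CRELD2 alone among them passed the test between lines. WRN itself fell by 1.04 in SW48, 0.37 more than in OVK18 (SE 0.103, adjusted p = 0.521). Leaving out 1 OVK18 library brought the count from 5 to 1 without control A, control B or sgWRN3 A and to 2 without sgWRN3 B. Across 9114 genes of at least 10 CPM the sgWRN3 effects in the lines had a correlation of 0.0632, and the OVK18 effect had one of 0.185 with the A minus B difference of SW48; genes are not independent of each other and these are descriptions.

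**Figure D5:**
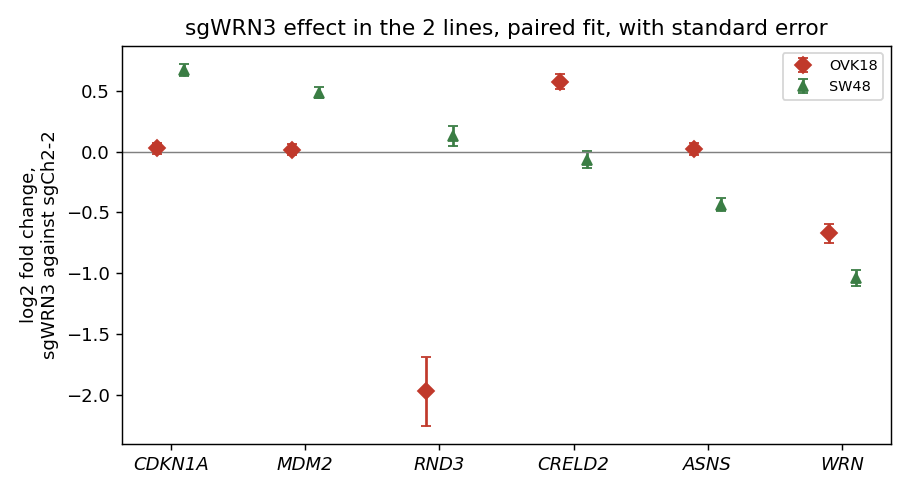
Log2 fold change of sgWRN3 against sgCh2-2 in OVK18 (red diamonds) and SW48 (green triangles) for the 5 genes that differed between the lines and for WRN, from the paired fit; bars are standard errors. CDKN1A and MDM2 lie near 0 in OVK18 (0.03 and 0.02) and above 0 in SW48 (0.67 and 0.48), while RND3 lies at -1.97 in OVK18 alone.

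Cytosolic chaperones lay on the other side of 0 from those of the ER. Of 14 genes of the cytosolic heat shock response, which HSF1 controls, 0 passed (0.0845% of all genes did), and the median was -0.12. Within both letters 12 were lower (85.7%, against 26.4% of all genes) and 1 higher (7.14%, against 27.4%). Of the 14, 7 had an unadjusted p under 0.05, all lower. Over all genes tested 1.77% were lower at that p. HSPH1, an Hsp110 chaperone, stood at 464 and 509 CPM in the controls and at 377 and 440.0 CPM with sgWRN3, both below both controls (-0.26, SE 0.0534, adjusted p = 0.162). HSP90AA1, the inducible cytosolic Hsp90, stood at 2710.0 and 2941 CPM in the controls and at 2328 and 2579 CPM with sgWRN3 (-0.20, SE 0.0499, adjusted p = 0.330). HSPA8, the constitutive cytosolic Hsp70, differed by -0.10 (adjusted p = 0.967), DNAJB4, a co-chaperone, by -0.34 (adjusted p = 0.330) and HSPA1A by -0.33 (adjusted p = 0.967), the last uncertain because HSPA1B is a near-identical copy. With sgWRN2 the same list had a median of 0.09 over the same controls, and with sgWRN3 in SW48 it had a median of -0.08.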

How the data were processed

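Poly-A RNA libraries of 2 lines with 3 guides were used, in 6 groups of 2. The authors deposited raw gene counts, for which the submitters' processing notes name bcl2fastq 2.18, STAR 2.5 and the build hg19; annotation and strand are not given in the sources used here. A second table deposited by the authors, read as FPKM from its values (Cufflinks 2.2.1 is named in those notes), served as an alternative, with pseudocounts of 1 and 0.1. Of the 25343 genes, filterByExpr kept 14199 in the fit of 12 libraries and 14209 in the paired fit. These were tested by edgeR 4.0.16 under R 4.3.3 (TMM scaling, robust quasi-likelihood test, Benjamini-Hochberg adjusted p under 0.05). The 92 spike-in features, all at 0, and 28 symbols turned into dates were left out of the text. The design fitted all 12 libraries with 6 residual degrees of freedom and no block. The letters A and B were taken as pairs for sgCh2-2 and sgWRN3 because their A minus B differences correlated at 0.672 to 0.738 in all pairs of these 4 groups, so the fit of 8 libraries with a block per line stands beside it. Each standard error is the log2 fold change divided by the root of its F statistic.

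Genes named: WRN, CDKN1A and MDM2; up to 12 called genes in each direction with both sgWRN3 libraries on 1 side of both controls and at least 1 CPM, filled to 6 by p; up to 3 per list; up to 4 in each direction between lines and guides. The members, 27 lists and further genes were chosen with earlier results of these data known. The result of 1 list is not reported here. Of the mitochondrially encoded genes, 0 were present. Alternatives were other scalings, filters, DESeq2 1.42.0, limma 3.58.1, other blocks, the FPKM table and leaving out each library; the steps were tested on simulated counts. Promoters came from RefSeq by symbol.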

Additional observations from a re-analysis of the deposited data

Results flagged for a closer look

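The effect of sgWRN3 differed between OVK18 and SW48, by the test of the difference in the paired fit, for 5 genes. The OVK18 effect minus the SW48 effect on the log2 scale was -0.65 for CDKN1A (adjusted p = 0.00130), -0.47 for MDM2 (adjusted p = 0.0155) and -2.09 for RND3 (adjusted p = 0.0155), and 0.64 for CRELD2 (adjusted p = 0.0155) and 0.46 for ASNS (adjusted p = 0.0302). The fit of all 12 libraries without pairing called 0 genes (152 at an unadjusted p under 0.05, 1 called by DESeq2, 0 by limma-voom). RND3 had 8 to 64 counts in the 4 OVK18 libraries, which limits its precision.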

How the results depend on the processing

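The count of genes called with sgWRN3, 0 without pairing, was 2 with no filter, 1 with DESeq2 and 0 under the other fits without a block. With a replicate block it was 12 in the 8 libraries, 4 with 1 block for both lines, 164 in the 4 OVK18 libraries, 0 in all 12 libraries, and, in fits added after seeing the data, 9 with DESeq2, 4 with limma-voom and 2 with the sgWRN2 letters crossed; leaving out a library gave 0 to 2. The count between lines, 0 without pairing, was 3 with no filter, 1 with DESeq2, 2 on FPKM with either pseudocount, 5 with a block per line or shared, 3 and 2 with DESeq2 and limma-voom with a block, 1 with crossed letters, and 0 to 2 without a library. The count between guides, 106, was 518 with no filter, 530 with DESeq2, 25 in the 6 OVK18 libraries, 31 with a block, 1790 with crossed letters, and 11 to 100 without a library. The WRN difference passed, at -0.67 each, with the replicate block per line, shared, in the 4 libraries, with DESeq2, with limma-voom and with crossed letters; without a library it passed at -0.80 and -0.81 in the paired fit (control A, sgWRN3 A) and ran from -0.83 to -0.51. The sign turned for CDKN1A (-0.041 to 0.065 without a library, among them -0.022 and -0.024 in the paired fit), MDM2 (-0.13 to 0.12 without a library, among them -0.030 and -0.011 in the paired fit, -0.0057 and -0.0058 on FPKM), ASNS (-0.057 to 0.080 without a library, -0.018 and -0.018 on FPKM) and CALR (-0.056 to 0.47 without a library), none of them called. Except where fewer libraries entered, the cause was not tested. Between guides the block also ended the calls of CRELD2, FICD, RNASE4, TES and ARHGEF37 and kept those of HERPUD1, MANF, HSPA5, CCND2, HTATIP2, NEFM, EGR1 and IFT57. With 2 libraries a group, differences of the size of CDKN1A or MDM2 in OVK18 were not detectable.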

Other observations

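Other gene groups in OVK18 with sgWRN3 held no called member in the paired fit. That fit called only 0.0845% of all genes, so this carries little weight for lists of such sizes. The 27 cholesterol and fatty acid synthesis genes, which make membrane lipids at the ER, had a median log2 fold change of 0.05. Within both letters 19 were higher (70.4%, against 27.4% of all genes) and 1 lower (3.7%, against 26.4%). TM7SF2, a sterol reductase, had the smallest p of these, at 57.7 and 45.7 CPM in controls A and B and 65.9 and 56.7 CPM with sgWRN3 (0.25, SE 0.0619, adjusted p = 0.330). Of 22 extracellular matrix genes, 9 were higher (40.9%) and 5 lower (22.7%) within both letters, with a median of 0.06. HSPG2, the basement membrane proteoglycan perlecan, stood at 5.86 and 5.85 CPM in the controls and 8.14 and 7.60 CPM with sgWRN3 (0.42, SE 0.109, adjusted p = 0.384). LAMA5, a laminin chain, differed by 0.26 (adjusted p = 0.254).

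Among 34 genes of the immediate-early response and MAPK feedback, the median was -0.02. Within both letters 12 were higher (35.3%, against 27.4% of all genes) and 10 lower (29.4%, against 26.4%). EGR3 stood at 1.09 and 1.42 CPM in the controls and 2.00 and 1.75 CPM with sgWRN3 (0.55, SE 0.228, adjusted p = 0.933), and at 4.49 and 3.51 CPM with sgWRN2. Of 61 ribosomal protein genes, 28 were higher (45.9%) and 8 lower (13.1%) within both letters, with a median of 0.02. Interferon-stimulated genes (25 tested, median -0.04), NF-kB targets (10, -0.02), BCL2 family and caspase genes (27, -0.02), ribosome biogenesis and MYC target genes (26, -0.03), Wnt targets (18, 0.05), hypoxia and glycolysis genes (31, 0.02) and polyadenylated histones (14, 0.12) also held no called member.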
